A study of Mus musculus with 44 samples.

Results

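The MHC class II genes and their transactivator Ciita were followed by RNA-seq in BMDMs, macrophages differentiated in culture from mouse bone marrow. Members were the rows whose symbol was H2-Aa, H2-Ab1, H2-Eb1, H2-DMa, H2-DMb1, H2-DMb2, Cd74 or Ciita, giving 8 of the 24940 genes listed in each of 4 count tables. The 44 libraries formed 22 groups of 2 replicates, and nothing in the labels says that replicates came from separate animals, so p-values measure the spread between libraries only. Library names give C57Bl6 wherever they give a strain. The source label reads bone marrow-derived macrophages throughout, but the names of the 4 RANKL libraries call them Osteoclast.

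In the largest table (24 libraries, 12 groups), WT cells carried NCoR flox/flox without Cre, and NKO cells carried NCoR flox/flox with LysMCre. LysMCre is driven by the Lyz2 promoter and acts in myeloid cells, so cells without Lyz2 activity can keep NCoR. Both genotypes received vehicle (Veh), KLA (Kdo2 lipid A, which activates TLR4), PolyIC (double-stranded RNA analog, TLR3), IFNb or IL4 for 6 h, or RANKL, the osteoclast differentiation factor, for 12 h. A table of 6 Wild type libraries held Veh, KLA, and KLA with the HDAC3 inhibitor RGFP966. Another of 8 libraries held Pgc1b flox/flox cells without or with LysMCre, under Veh or KLA. The last held 6 Wild type libraries with DMSO_Veh, DMSO_KLA, or TBK1i_KLA, in which the kinase TBK1 was inhibited. Treatment in these 3 tables lasted 6 h.

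MHC class II molecules present peptides from the endocytic route to CD4 T cells and consist of an alpha and a beta chain. The invariant chain Cd74 escorts the new heterodimer and occupies its groove, and the heterodimer H2-DM then helps exchange the remnant for peptide. Ciita does not bind DNA itself but is recruited to an X box and Y box upstream of these genes by RFX, CREB and NF-Y, and it sets their level in most cells. In macrophages the pathway is classically driven by interferon gamma.

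H2-Aa encodes the alpha chain of I-A (mm10 chr17:34282751-34287771, minus strand), and H2-Ab1 encodes its beta chain (chr17:34263227-34269418). H2-Eb1 encodes the beta chain of I-E (chr17:34305867-34316674), a molecule without an alpha chain partner in C57BL mice, where the alpha gene is a pseudogene. H2-DMa (chr17:34125518-34139101), H2-DMb1 (chr17:34153191-34160229) and H2-DMb2 (chr17:34145416-34151095) encode the DM chains. Ciita lies on another chromosome (chr16:10480072-10527640), as does Cd74. Counts of each gene covered the exons of 1 RefSeq transcript. For H2-DMa that transcript differed in the TBK1i table (2053 bases elsewhere, 1650 bases there), so its levels are not comparable with that table.

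The promoter stretches below were searched for letters of the X box, the Y box and the cAMP response element, without data on Ciita binding. They are the 150 bases before the RefSeq start site (GRCm38.p6), 5′ to 3′ on the gene's strand, with the Y box core (TGATTGG), the X box core (AACNGATGA) and the cAMP response element (TGACGTCA) in capitals. These letters were chosen after reading the sequences, were searched on both strands, and do not overlap in the windows shown. Windows are H2-Aa chr17:34287824-34287973 (minus strand), H2-Eb1 chr17:34305717-34305866, H2-DMb1 chr17:34153041-34153190 and H2-DMb2 chr17:34145099-34145248. The start sites used for H2-Aa (34287823) and H2-DMb2 (34145249) differ from those of the counted transcripts (34287771 and 34145416).
H2-Aa: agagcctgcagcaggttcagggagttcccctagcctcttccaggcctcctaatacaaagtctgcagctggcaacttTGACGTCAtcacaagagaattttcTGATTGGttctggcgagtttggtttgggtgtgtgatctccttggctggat
H2-Eb1: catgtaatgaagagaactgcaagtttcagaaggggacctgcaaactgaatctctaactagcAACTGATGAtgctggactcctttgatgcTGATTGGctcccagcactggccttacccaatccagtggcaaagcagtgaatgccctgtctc
H2-DMb1: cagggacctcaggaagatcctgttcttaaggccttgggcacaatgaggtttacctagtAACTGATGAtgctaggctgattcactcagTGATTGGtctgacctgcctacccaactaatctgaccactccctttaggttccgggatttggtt
H2-DMb2: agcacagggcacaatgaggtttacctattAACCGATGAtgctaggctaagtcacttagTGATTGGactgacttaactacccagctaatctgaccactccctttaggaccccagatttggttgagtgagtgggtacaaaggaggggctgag
In H2-Eb1, H2-DMb1 and H2-DMb2 the X box core lay upstream of the Y box core, 19, 20 and 20 bases apart. H2-Aa held the Y box core at -50 to -44 and the cAMP response element at -74 to -67, without the X box letters. H2-DMa held no match in either of its entries. Among 32851 RefSeq windows of 250 bases, 7.23% held the Y box core, 0.572% the X box core, 1.55% the response element, and 0.0426% (14 windows) both boxes. A match is a description of the letters only. H2-Ab1, Cd74 and Ciita are named here without a window.

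Gene counts per library were 8.32 M to 16.8 M (median 12.2 M, with M for 1000000 counts), and 3 counts, taken as the floor of detection, corresponded to 0.179 to 0.36 counts per 1000000 gene counts (CPM). Values below are CPM after TMM scaling unless stated, and each table was scaled on its own. Ncor1 was 49.4 to 65.0 CPM in the NKO libraries and 133 to 215 CPM in WT libraries. All 7 macrophage markers passed 3 counts in every library, with a summed level of 9167 to 23576 CPM. The 7 B cell markers, mostly Cd22, summed to 3.44 to 29.6 CPM. Their sums were 20.7 and 20.3 CPM in WT_Veh and 3.44 and 3.50 CPM in WT_KLA. The T cell markers summed to 1.11 to 21.1 CPM, mostly Cd4. The column names carry stamps whose meaning is not stated: WT_KLA, NKO_KLA and the RANKL libraries each carried stamps unlike Veh, PolyIC, IFNb and IL4, which shared one. The WT_Veh replicates differed more than those of any other group (chi-square per degree of freedom 6.16, against a lowest of 1.55), so calls against WT_Veh that change without its replicate 2 are named or counted.

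At rest, the invariant chain Cd74 (chr18:60803849-60812652) was the most abundant member per length and Ciita was among the lowest. In WT_Veh the mean level per kilobase was 173 CPM for Cd74, 66.3 for H2-Aa, 40.8 for H2-Ab1, 22.9 for H2-Eb1, 18.3 for H2-DMb1, 9.42 for H2-DMa and 1.32 for Ciita. H2-DMb2 stood at 0.484 CPM per kilobase. This order held in the Veh libraries of the RGFP966 table, whereas in Pgc1b_flox_Veh H2-DMb1 (15.6) ranked above H2-Aa (12.7), H2-Ab1 (8.19) and H2-Eb1 (3.76), and in DMSO_Veh H2-DMb1 (17.5) ranked above H2-Eb1 (15.8). Together the 8 members took between 0.0183% of a library's gene counts, in a Pgc1b_flox_Veh library, and 0.379%, in a RGFP966_KLA library.

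Levels in unstimulated cells differed widely between the experiments. H2-Aa was 56.5 and 84.3 CPM in WT_Veh, 382 and 409 CPM in the Veh libraries of the RGFP966 table, 14.1 and 12.9 CPM in Pgc1b_flox_Veh, and 43.1 and 48.0 CPM in DMSO_Veh. Cd74 ranked the same 4 vehicle groups in almost the same way, at 194 and 293, 1336 and 1358, 78.1 and 79.3, and 188 and 216 CPM. The RGFP966 table was the highest and the Pgc1b table the lowest for both, without overlap with the other experiments. Ciita was 6.26 and 8.69, 26 and 29.2, 6.49 and 5.83, and 11.8 and 10.7 CPM in the same order, so its high value also fell in the RGFP966 table. Tables were scaled separately and differ in genotype and preparation, which cannot be told apart, and no test was made across them. In bulk RNA, fewer cells of a type and less RNA per cell cannot be told apart either.

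**Figure D1:**
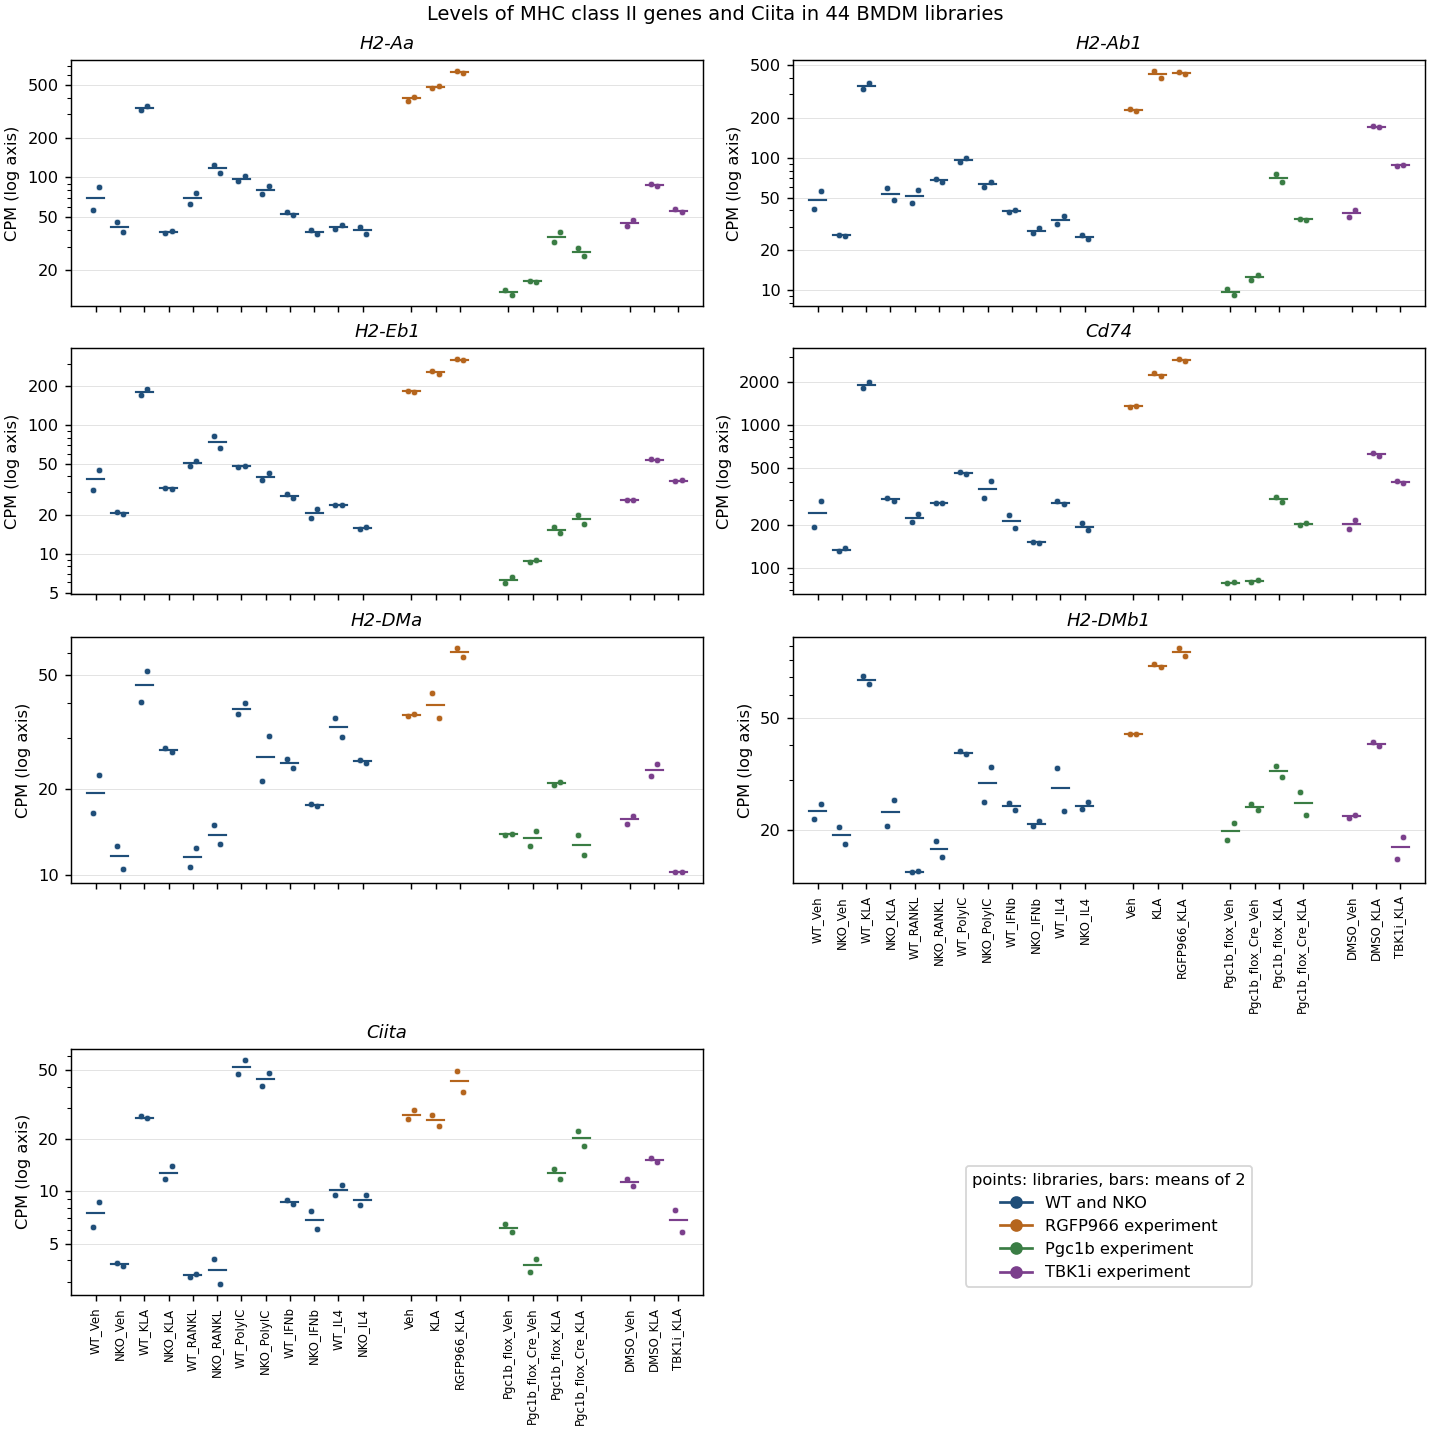
Level of 7 members in each of the 22 groups (CPM after TMM scaling, log axis), with 1 point per library, a line at the mean of the 2 libraries, and colours for the 4 tables. WT_KLA stands above the other WT and NKO groups for the chain genes and Cd74, at 1820.2 and 2003 CPM for Cd74, whereas Ciita is highest in the PolyIC groups.

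Across the 12 WT and NKO groups, the ratio of the highest to the lowest mean was 15.9 for Ciita, 14.3 for Cd74, 13.8 for H2-Ab1, 11.4 for H2-Eb1, 8.76 for H2-Aa, 4.81 for H2-DMb1 and 4.01 for H2-DMa. The groups that set these extremes differed between genes. H2-Ab1 ran from WT_KLA through WT_PolyIC, NKO_RANKL, NKO_PolyIC, NKO_KLA, WT_RANKL, WT_Veh, WT_IFNb, WT_IL4, NKO_IFNb and NKO_Veh to NKO_IL4. In that order NKO_KLA overlapped WT_RANKL, WT_RANKL overlapped WT_Veh, and NKO_Veh overlapped NKO_IL4, while the other neighbours did not overlap. Ciita ran from WT_PolyIC and NKO_PolyIC, which overlapped, through WT_KLA, NKO_KLA and WT_IL4. Below these, NKO_IL4, WT_IFNb, WT_Veh and NKO_IFNb overlapped in turn, and NKO_Veh, NKO_RANKL and WT_RANKL closed the order, also overlapping. H2-DMa was highest in WT_KLA and lowest in WT_RANKL.

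KLA raised 7 of the 8 members in WT cells, against a background of 25.4% of the 13407 genes tested called higher (edgeR, FDR < 0.05, FC > 1.5). All 8 passed the filter on low counts in this table. Cd74 rose from 194 and 293 CPM to 1820.2 and 2003 CPM (log2 fold change 2.97, SE 0.173, adjusted p = 1.65e-09). H2-Ab1 went from 41.0 and 55.7 CPM to 331 and 366 CPM (2.85, SE 0.123, adjusted p = 4.99e-12). H2-Aa went from 56.5 and 84.3 CPM to 325 and 350.1 CPM, a log2 fold change of 2.26. Every WT_KLA library lay far above both vehicle libraries for these 3 genes. H2-Eb1 rose by 2.25, Ciita by 1.82, H2-DMb1 by 1.55 and H2-DMa by 1.25 on the log2 scale. The median over members was 2.04, against -0.14 over all genes tested. Leaving out WT_Veh replicate 2 kept 7 calls, with Cd74 at 3.30 and H2-Ab1 at 3.08. KLA and vehicle libraries of this table carry different stamps, so treatment and stamp cannot be told apart here.

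The KLA response was also measured in 3 experiments in which the KLA and vehicle libraries shared a stamp. In Pgc1b flox/flox cells without Cre, all 7 tested members rose (background 22.8% of 12205 genes), led by H2-Ab1, from 10.2 and 9.19 CPM to 75.9 and 65.2 CPM (2.87, SE 0.139, adjusted p = 1.25e-19). The H2-DMa call there (0.59) was lost without Pgc1b_flox_Veh replicate 1 (0.57) or Pgc1b_flox_KLA replicate 2 (0.56). In DMSO-treated cells 5 of 7 rose (background 29.6% of 12332 genes), again led by H2-Ab1, from 35.8 and 40.6 CPM to 172 and 169.5 CPM (log2 fold change 2.16, SE 0.0627). H2-DMb2 did not pass the filter in either table. Ciita, at 11.8 and 10.7 CPM in DMSO_Veh and 15.5 and 14.7 CPM in DMSO_KLA, did not reach the fold threshold (0.42, adjusted p = 0.00789), nor did H2-DMa (0.58), which was called without DMSO_Veh replicate 2 (0.62) or DMSO_KLA replicate 1 (0.67). In the RGFP966 table, where resting levels were highest, 3 of 8 members rose (background 27.9% of 12196 genes), namely H2-Ab1 (0.88), H2-DMb1 (0.81) and Cd74 (0.74). H2-Ab1 went there from 235 and 226 CPM to 449 and 402 CPM. Ciita was 26 and 29.2 CPM in Veh and 27.6 and 23.7 CPM in KLA, with overlapping groups (-0.11). H2-DMb2 was called lower there (background 32.2%), on 25 counts over both Veh libraries and 1 over both KLA libraries, a ratio of 0.0722 (exact 95% interval 0.00176 to 0.441, counting error only), and was not called without KLA replicate 2 (adjusted p = 0.0912).

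The size of the KLA response depended on the scaling. With library totals in place of TMM, an alternative chosen after seeing the data, the median of all genes moved by -0.73 (WT), -0.69 (Pgc1b flox/flox), -0.78 (DMSO) and -0.77 (RGFP966 table) on the log2 scale. H2-Ab1 was then 2.12, 2.17, 1.38 and 0.11, and Cd74 was 2.25, 1.24, 0.85 and -0.03 in the same order. In WT and Pgc1b flox/flox cells H2-Aa (1.53 and 0.70), H2-Eb1 (1.52 and 0.61), H2-Ab1 and Cd74 were still called higher. H2-DMa turned to -0.65 in the RGFP966 table and -0.11 in Pgc1b flox/flox cells, and Ciita was called lower at -0.88 in the former. H2-Aa (-0.48) and H2-Eb1 (-0.28) in the RGFP966 table, and H2-DMa (-0.20) and Ciita (-0.36) in DMSO-treated cells, also turned below 0. The direction of the KLA response of these genes, and of Cd74 in the RGFP966 table, thus differed between scalings. Rescaling shifts all genes of a comparison by nearly the same amount, so the order of the members by fold change carries no separate information.

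**Figure D2:**
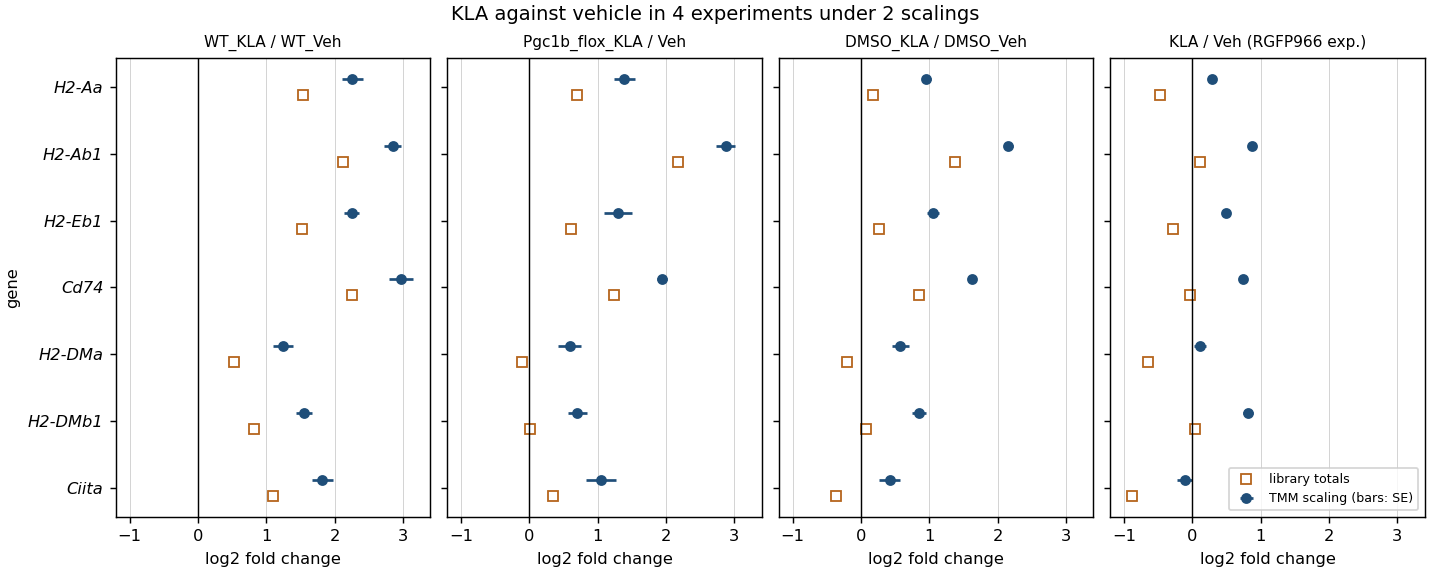
Log2 fold change of KLA against vehicle for 7 members in 4 experiments, with filled points for TMM scaling (bars, SE from edgeR) and open squares for library totals. H2-Ab1 is at 2.85, 2.87, 2.16 and 0.88 under TMM from left to right, and every open square lies to the left of its filled point.

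H2-Ab1 rose more than its partner chain H2-Aa in each KLA experiment, a statement that no scaling can change because it compares counts within a library. The ratio of H2-Ab1 to H2-Aa counts was 0.726 and 0.661 in WT_Veh and 1.02 and 1.05 in WT_KLA. It was 0.724 and 0.71 in Pgc1b_flox_Veh and 2.33 and 1.69 in Pgc1b_flox_KLA, and 0.832 and 0.847 in DMSO_Veh and 1.92 and 1.96 in DMSO_KLA. In the RGFP966 table it was 0.616 and 0.553 in Veh, 0.949 and 0.814 in KLA, and 0.694 and 0.691 in RGFP966_KLA. All 8 libraries with KLA alone and without Cre lay above both vehicle libraries of their own table. The ratio was 0.985 in both WT_PolyIC libraries, 0.783 and 0.832 in WT_IL4 and 0.733 and 0.74 in WT_RANKL, all above both WT_Veh libraries, and 0.712 and 0.772 in WT_IFNb, which overlapped WT_Veh. No test was made on the ratio.

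**Figure D3:**
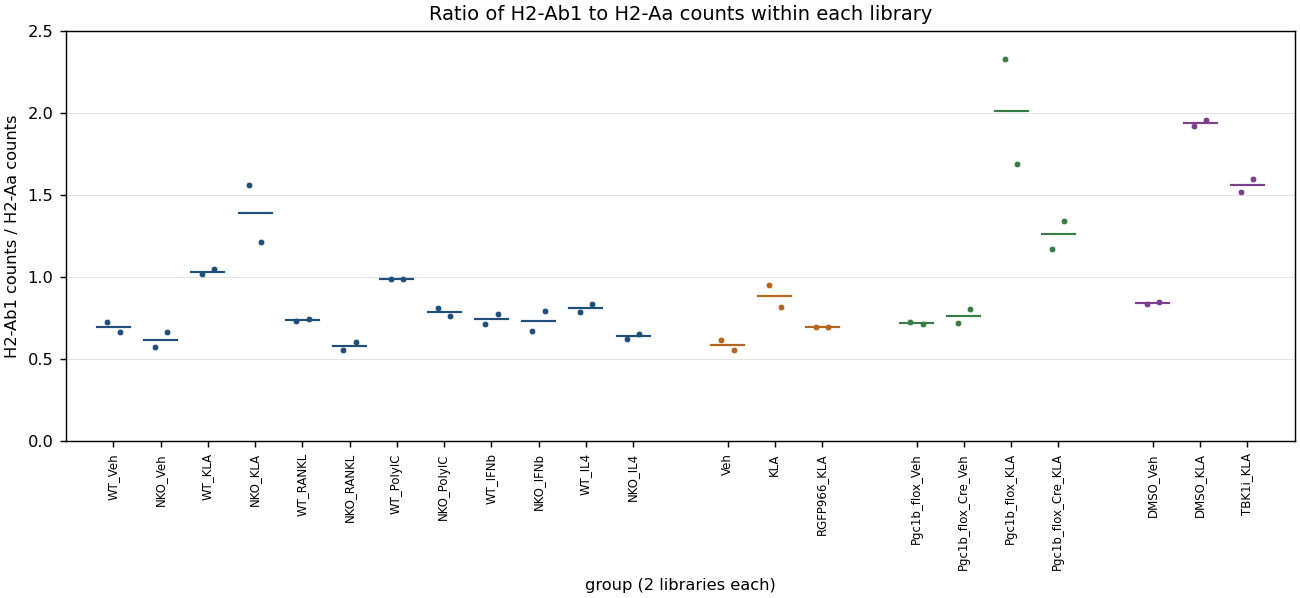
H2-Ab1 counts divided by H2-Aa counts in each library (linear axis from 0), 1 point per library with a line at the mean of each group. WT_Veh sits at 0.726 and 0.661 and DMSO_KLA at 1.92 and 1.96, and the ratio exceeds 1 only in groups that received KLA.

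With PolyIC, Ciita stood above its KLA level without overlap, whereas the chain genes and Cd74 stood below theirs. Ciita went from 6.26 and 8.69 CPM in WT_Veh to 47.4 and 56.9 CPM in WT_PolyIC (log2 fold change 2.80, SE 0.135, adjusted p = 1.92e-27). In all, 5 of 8 members rose (background 22.2%), the others being H2-Ab1 (0.99), H2-DMa (0.98), Cd74 (0.92) and H2-DMb1 (0.69). H2-Ab1 was 92.4 and 100.0 CPM in WT_PolyIC, between the vehicle and the KLA libraries without overlap with either. H2-Aa (0.47, adjusted p = 0.0201) and H2-Eb1 (0.33) did not reach the threshold. With library totals Ciita alone was called, at 2.16, and H2-Aa and H2-Eb1 turned to -0.17 and -0.32. Without WT_Veh replicate 2, 7 members were called, H2-Aa (0.79) and H2-Eb1 (0.60) included. Dendritic cell markers summed to 14.8 and 17.5 CPM in WT_PolyIC, against 1.44 and 1.64 CPM in WT_Veh and 6.22 and 6.00 CPM in WT_KLA, and their part in these results was not tested. The KLA and PolyIC comparisons share the WT_Veh libraries. WT_PolyIC and WT_KLA carry different stamps, so ligand and stamp cannot be told apart where their levels are compared.

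Among the other ligands, none of the 8 members was called with IFNb by edgeR (background 6.47% in either direction). For IFNb, 3 members had an unadjusted p under 0.05, and DESeq2 called 0. Ciita was 8.94 and 8.45 CPM in WT_IFNb, overlapping WT_Veh, and H2-Aa was 54.5 and 52.1 CPM. Without WT_Veh replicate 2, H2-DMa was called higher (0.59), and without WT_Veh replicate 1, H2-Aa (-0.66) and H2-Eb1 (-0.67) were called lower. With IL4, H2-Aa (40.6 and 43.5 CPM, log2 fold change -0.74) and H2-Eb1 (24 and 23.9 CPM, -0.67) were called lower (background 6.46%) and H2-DMa (35.4 and 30.4 CPM, 0.76) higher (background 6.63%). The lower calls were lost without WT_Veh replicate 2 (-0.43 and -0.40), and Ciita was then called higher at 0.70. The H2-DMa call was lost without WT_Veh replicate 1 (0.56), and that of H2-Aa with only the compared groups in the fit (adjusted p = 0.14). H2-Ab1 was called lower without WT_Veh replicate 1 (-0.71) or WT_IL4 replicate 2 (-0.61).

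RANKL lowered Ciita, H2-DMa and H2-DMb1. Ciita was 3.20 and 3.35 CPM in WT_RANKL (log2 fold change -1.19, SE 0.197, adjusted p = 3.53e-07), below both vehicle libraries. H2-DMa (10.6 and 12.4 CPM, -0.75) and H2-DMb1 (14.2 and 14.3 CPM, -0.71) were also lower, which made 3 of 8 members against a background of 19.8%. H2-Aa, at 62.5 and 76.7 CPM, and H2-Ab1, at 45.8 and 56.7 CPM, overlapped vehicle, and H2-Eb1 at 48.5 and 52.8 CPM had a log2 fold change of 0.41. Without WT_Veh replicate 2, H2-DMa was -0.51 and no longer called, and H2-Eb1 was called higher at 0.68. H2-DMb2 was then also called higher, at 2.41 (adjusted p = 0.0374), on 13 and 10 counts in WT_RANKL. The 5 neutrophil markers summed to 654 and 629 CPM in WT_RANKL and 987 and 918 CPM in NKO_RANKL, and to at most 22.1 CPM in the other libraries. Dendritic cell markers summed to 8.18 and 10.8 CPM in WT_RANKL, 11.6 and 12.2 CPM in NKO_RANKL and 1.44 and 1.64 CPM in WT_Veh. B cell markers summed to 22.6 and 24.3 CPM, 29.4 and 29.6 CPM, and 20.7 and 20.3 CPM in the same order. In the dendritic cell list and in the B cell list, 5 of 6 tested markers were called higher in WT_RANKL (background 24.1%). All 5 neutrophil markers were also called higher. Of the 7 macrophage markers, 5 were called lower (background 19.8%) and 1 higher. Dendritic cells and B cells both express class II genes, and the part of these markers in the result was not tested. RANKL also differs from Veh in stamp, in time and in being named Osteoclast, which cannot be told apart from the ligand.

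Deletion of NCoR lowered most members in resting cells. In NKO_Veh 6 of 8 were called lower than in WT_Veh, against a background of 3.8% of genes. Ciita was 3.88 and 3.71 CPM against 6.26 and 8.69 CPM (log2 fold change -0.98, SE 0.189, adjusted p = 4.92e-05). H2-Ab1 was 26.2 and 25.7 CPM against 41.0 and 55.7 CPM (-0.90, SE 0.147, adjusted p = 0.000358), and Cd74 was 130.4 and 137 CPM against 194 and 293 CPM (-0.86). The groups did not overlap for any of these 3 genes. H2-Eb1 (-0.87), H2-DMa (-0.75) and H2-Aa (-0.74) were the other calls, and H2-DMb1 (-0.29) was not called. WT_Veh replicate 2 held the higher value of the pair for all 7 of these members. Without that library 3 calls were left, namely H2-Ab1 (-0.66), H2-Eb1 (-0.60) and Ciita (-0.72), while Cd74 (-0.53), H2-DMa (-0.51) and H2-Aa (-0.42) were not called. With only the compared groups in the fit Cd74 (adjusted p = 0.194) and H2-Aa (adjusted p = 0.215) were not called either, nor was H2-Aa without NKO_Veh replicate 2 (adjusted p = 0.0826).

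Under KLA, 7 of 8 members were lower in NKO cells, where 19% of all genes were called lower. H2-Aa was 37.9 and 39.4 CPM in NKO_KLA against 325 and 350.1 CPM in WT_KLA (log2 fold change -3.13, SE 0.167, adjusted p = 9.68e-10). H2-Ab1 was 59.2 and 47.8 CPM against 331 and 366 CPM (-2.70), and Cd74 was 309 and 295 CPM against 1820.2 and 2003 CPM (-2.66). The NKO_KLA values of H2-Aa also overlapped NKO_Veh (46.1 and 38.8 CPM), so the response seen in WT was not visible for this gene. H2-Eb1 was lower by -2.48, H2-DMb1 by -1.57, Ciita by -1.05 and H2-DMa by -0.75, the last not called without WT_KLA replicate 2 (-0.56). Ciita stood at 11.8 and 13.9 CPM, above NKO_Veh. So did H2-Ab1 (NKO_Veh 26.2 and 25.7 CPM) and Cd74 (130.4 and 137 CPM), without overlap. The same held for H2-Eb1 (32.7 and 32.1 against 21.2 and 20.5 CPM) and H2-DMa (27.8 and 26.8 against 12.6 and 10.5 CPM). H2-DMb1 was 20.6 and 25.6 CPM against 20.5 and 17.9 CPM. With library totals H2-Aa (mean 26.9 against 49.1 CPM), H2-Eb1 (22.5 against 24.1 CPM) and H2-DMb1 (16.1 against 22.2 CPM) were below NKO_Veh. NKO_KLA and NKO_Veh carry different stamps and were not tested against each other.

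The difference between the KLA responses of the genotypes was tested directly. The test called H2-Aa (-2.39, SE 0.238, adjusted p = 1.42e-06), H2-Ab1 (-1.80), Cd74 (-1.80), H2-Eb1 (-1.61) and H2-DMb1 (-1.28), or 5 of 8 members against 17% of all genes. Ciita was not among them, with a difference of -0.07 (SE 0.248, adjusted p = 0.855), and neither was H2-DMa. Without WT_Veh replicate 2 the test also called 5. WT_KLA and NKO_KLA carry different stamps, so genotype and stamp cannot be told apart in these KLA results. Markers of dendritic cells, which also express class II genes, summed to 53.4 and 47.1 CPM in NKO_KLA and to 6.22 and 6.00 CPM in WT_KLA, with Clec9a at 21.9 and 22.2 CPM and Ccr7 at 17.6 and 15.5 CPM in NKO_KLA. These markers were thus higher in the group in which the members were lower, and their part in the result was not tested.

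With RANKL the genotype difference ran the other way. H2-Aa was 125 and 109 CPM in NKO_RANKL and 62.5 and 76.7 CPM in WT_RANKL (log2 fold change 0.75, SE 0.155, adjusted p = 0.00186), the single member called (background 6.21%). H2-Eb1 (0.55) and H2-Ab1 (0.40) were below the fold threshold, although the groups did not overlap for any of the 3, and H2-Eb1 was called without WT_RANKL replicate 2 (0.61) or NKO_RANKL replicate 2 (0.69). The test of the difference between the RANKL responses called 6 of 8 members higher (background 7.26%), from H2-Aa (1.49) and H2-Eb1 (1.42, adjusted p = 1.64e-06) to H2-DMa (1.03). Without WT_Veh replicate 2 it called 5. For Ciita, H2-DMa and Cd74 the NKO to WT log2 fold change was 0.11, 0.27 and 0.34 under RANKL, not called. Under vehicle it was -0.98, -0.75 and -0.86, so these response differences came mostly from the vehicle groups. The RANKL libraries of both genotypes share a stamp, but differ from Veh in stamp, in time and in being named Osteoclast.

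Under PolyIC, IL4 and IFNb, 1, 1 and 0 of the 8 members were called between genotypes. In NKO_PolyIC, H2-Ab1 was 60.4 and 65.5 CPM against 92.4 and 100.0 CPM (-0.61, adjusted p = 0.00452), the 1 call of 8 (background 2.92%). That call was lost without WT_PolyIC replicate 2 or NKO_PolyIC replicate 1, or with library totals. Ciita, at 40.4 and 48.0 CPM, overlapped WT_PolyIC. The difference between PolyIC responses called Ciita (0.74) and H2-Eb1 (0.61), against 2.13% of genes, but 0 members without WT_Veh replicate 2. In NKO_IL4 only H2-Eb1 was called, at 15.5 and 16.2 CPM against 24 and 23.9 CPM (-0.59, adjusted p = 0.009, background 2.33%), and no member was called without any 1 of the 4 libraries. In NKO_IFNb edgeR called 0 members (background 3.8%), although 5 had an unadjusted p under 0.05, and DESeq2 called 0. The differences between the IFNb and between the IL4 responses called 0 members each in edgeR and in DESeq2 (background 0.604% in both), with 2 and 3 at an unadjusted p under 0.05.

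**Figure D4:**
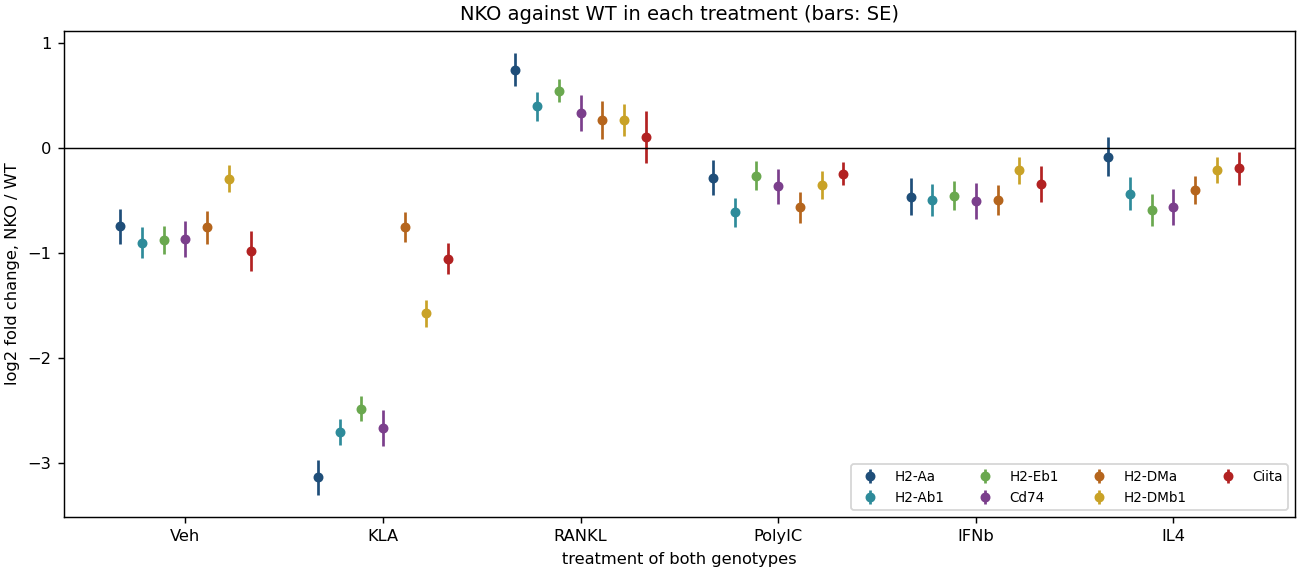
Log2 fold change of NKO against WT for 7 members under each of 6 treatments (points, edgeR estimates; bars, SE; line at 0). Points reach -3.13 under KLA (H2-Aa) and 0.75 under RANKL (H2-Aa), and lie below 0 under vehicle for all 7 members.

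With RGFP966 added ahead of KLA, Ciita and H2-DMa were called higher, both at less than the fold threshold when 1 library was left out. Ciita was 49.4 and 37.2 CPM in RGFP966_KLA against 27.6 and 23.7 CPM in KLA (log2 fold change 0.76, SE 0.106, adjusted p = 7.18e-09). H2-DMa was 62.1 and 58.1 CPM against 43.3 and 35.4 CPM (0.62, SE 0.087, adjusted p = 4.65e-09). Neither gene overlapped between groups. H2-Aa (0.38), H2-Eb1 (0.34) and Cd74 (0.34) were below the fold threshold, and H2-Ab1, at 441 and 427 CPM against 449 and 402 CPM, had a log2 fold change of 0.03 (adjusted p = 0.683). H2-DMb2 was the last of 3 calls (background 15.8%), on 12 counts over both RGFP966_KLA libraries and 1 over both KLA libraries, a ratio of 10.1 (exact 95% interval 1.49 to 431). Without RGFP966_KLA replicate 1, Ciita (0.54) and H2-DMa (0.57) were not called. H2-DMa was also not called without KLA replicate 2 (0.46) or by DESeq2 (0.55), and H2-DMb2 was not called by DESeq2, nor without KLA replicate 1, KLA replicate 2 or RGFP966_KLA replicate 2. Replicate 2 of RGFP966_KLA carries a stamp unlike the rest of its table.

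The Pgc1b table is described by its labels, since Ppargc1b itself, over the whole transcript, was not lower with Cre. It was 4.38 and 2.88 CPM in Pgc1b_flox_Veh, 3.75 and 3.41 CPM in Pgc1b_flox_Cre_Veh, 7.81 and 6.78 CPM in Pgc1b_flox_KLA, and 10.3 and 8.74 CPM in Pgc1b_flox_Cre_KLA. Loss of part of the transcript cannot be seen in such counts, nor can protein, which the paper examined by immunoblot in BMDMs of both genotypes. In resting cells, edgeR called 0 of 7 tested members between the libraries labelled with and without Cre (background 0.303%), 3 had an unadjusted p under 0.05, and DESeq2 called 0. Under KLA, the libraries labelled Pgc1b_flox_Cre_KLA had less H2-Ab1 and more Ciita. H2-Ab1 was 34.5 and 33.9 CPM against 75.9 and 65.2 CPM (log2 fold change -1.04, SE 0.123, adjusted p = 7.01e-09). H2-DMa was also lower, at 13.8 and 11.7 CPM against 20.6 and 21.1 CPM (-0.71), 2 of 7 members against 12.9% of genes. Ciita was 22.1 and 18.3 CPM against 13.5 and 11.8 CPM (0.67, SE 0.199, adjusted p = 0.00614, background 13.2%). The Ciita call was lost without Pgc1b_flox_Cre_KLA replicate 1 (0.55, adjusted p = 0.0918), and that of H2-DMa with library totals (-0.51). Cd74 was called lower without Pgc1b_flox_KLA replicate 2 or Pgc1b_flox_Cre_KLA replicate 2 (-0.60 in both).

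The difference between the KLA responses with and without Cre was also tested. The test called H2-Ab1 (-1.41, SE 0.196, adjusted p = 3.67e-07), H2-DMa (-0.66), H2-Aa (-0.65), H2-DMb1 (-0.65) and Cd74 (-0.61) lower with Cre (5 of 7, background 11.2%). Ciita was called higher (1.38, SE 0.308, adjusted p = 0.000524, background 11.6%), and H2-Eb1 was not called (-0.23, adjusted p = 0.577). Library totals moved the median of all genes by 0.23, which left 2 of the 6 calls. Calls fell to 3 without Pgc1b_flox_KLA replicate 1 or Pgc1b_flox_Cre_KLA replicate 2. The table carries 1 stamp.

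With the TBK1 inhibitor added ahead of KLA, 6 of 7 tested members were lower, Ciita included, against a background of 18.3%. Ciita was 7.82 and 5.86 CPM in TBK1i_KLA against 15.5 and 14.7 CPM in DMSO_KLA (log2 fold change -1.13, SE 0.181, adjusted p = 1.88e-09), below the vehicle libraries as well. H2-DMb1 was 15.8 and 18.9 CPM against 41.1 and 39.7 CPM (-1.22, SE 0.115, adjusted p = 2.05e-25), and H2-DMa was 10.2 CPM in both libraries against 22.1 and 24.4 CPM (-1.19). These 3 genes lay under their DMSO_Veh values. No group received the inhibitor without KLA, so its effect on resting levels was not measured. H2-Ab1 (86.9 and 87.9 CPM against 172 and 169.5 CPM, -0.97), H2-Aa (57.3 and 55.0 CPM, -0.65) and Cd74 (407 and 389.9 CPM, -0.64) were lower, and above vehicle on the TMM scale. With library totals H2-Aa, at a mean of 55.5 CPM, was below its vehicle mean of 59.9 CPM. H2-Eb1 at -0.55 was below the fold threshold. Library totals moved the median of all genes by 0.37, and H2-Aa (-0.29) and Cd74 (-0.28) were then no longer called.

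**Figure D5:**
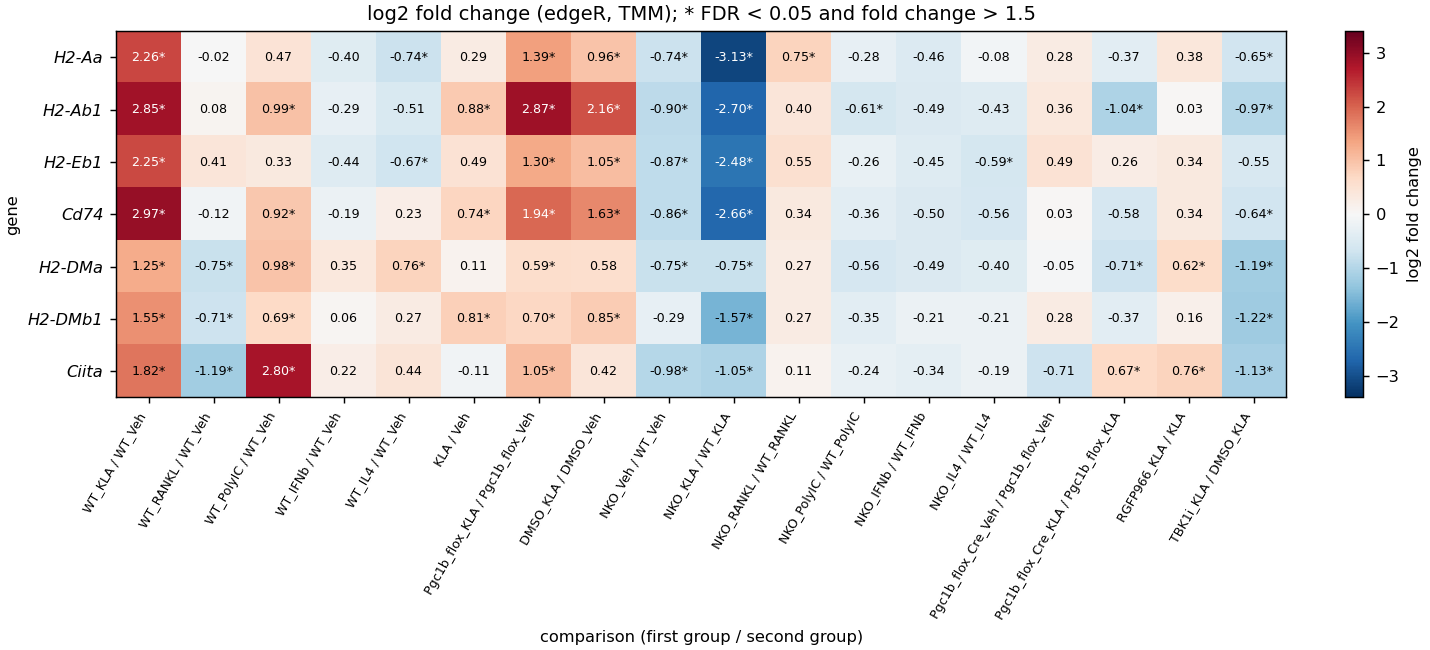
Log2 fold change (edgeR, TMM) of 7 members in each comparison of 2 groups, with an asterisk for FDR < 0.05 and FC > 1.5. On this scaling the columns of KLA against vehicle are positive except for Ciita in the RGFP966 table (-0.11), whereas library totals turn further cells negative, and the Ciita and H2-Ab1 cells of Pgc1b_flox_Cre_KLA against Pgc1b_flox_KLA have opposite signs (0.67 and -1.04).

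H2-DMb2, the second DM beta gene, was at 0 to 13 counts in every library, with 13 and 10 counts in WT_RANKL. The reference transcripts of H2-DMb1 and H2-DMb2 (GENCODE vM21, 1404 and 1424 bases) were 76.3% identical over 1571 aligned columns, so some reads of the pair could be shared, and the H2-DMb2 values are uncertain. The related genes H2-Oa and H2-Ob, which encode an inhibitor of H2-DM, were at 16 and 18 counts or fewer in the NCoR table, and the alpha chain pseudogene H2-Ea-ps was at 0 counts there. H2-Ob reached 62 and 86 counts in RGFP966_KLA against 5 and 4 in KLA (log2 fold change 3.76).

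RFX, NF-Y and CREB, the partners of Ciita on the promoter, were covered by 7 genes. With KLA in WT cells 2 of them rose and 2 fell, against 25.4% and 32.3% of all genes, and with PolyIC 2 rose and 2 fell, against 22.2% and 25.0%. Rfx5, the DNA-binding subunit of RFX, was 12.7 and 11.5 CPM in WT_Veh and 59.5 and 58.1 CPM in WT_PolyIC (log2 fold change 2.28), with WT_KLA between them (1.21). In NKO_KLA 3 of the 7 were lower than in WT_KLA (19% of all genes), Rfx5 among them (-0.66), and with TBK1i 3 of the 7 were higher (15.0% of all genes).

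Several regulators upstream of Ciita and genes of class II turnover also changed. Of the 9 genes listed upstream of Ciita, 7 rose and 2 fell with KLA in WT cells (background 25.4% and 32.3%). With PolyIC 6 rose and 1 fell (22.2% and 25.0%), and with RANKL 1 rose and 4 fell (24.1% and 19.8%). In NKO_Veh 3 were lower (3.8%). In Pgc1b_flox_Cre_KLA 2 were higher and 5 lower (13.2% and 12.9%), and in TBK1i_KLA 2 and 4 (15.0% and 18.3%). IL4 in WT cells raised 3 (background 6.63%), namely Socs1 (log2 fold change 6.11), Irf4 (4.88) and Irf1 (1.03). Irf8, a myeloid interferon regulatory factor, was 2374 and 2500.3 CPM in NKO_KLA against 554 and 553 CPM in WT_KLA (2.14). It was the 1 gene of the 9 called higher there (background 21%), and 2 others were called lower (background 19%). WT_KLA and NKO_KLA carry different stamps. Of 5 turnover genes, the ubiquitin ligase March1, which removes class II from the surface, was lower in NKO_Veh (-0.73), NKO_KLA (-0.96), Pgc1b_flox_Cre_KLA (-2.34) and TBK1i_KLA (-1.31) than in their controls. In NKO_RANKL it was higher, at 32.7 and 31.5 CPM against 20.7 and 21.8 CPM (0.60), and 4 of the 5 turnover genes were called higher there, against 6.21% of all genes. In NKO_Veh 2 of the 5 were higher and 1 lower (2.4% and 3.8% of all genes), and in NKO_KLA likewise (21% and 19%). In NKO_PolyIC and NKO_IFNb 2 were higher (3.01% and 1.86%), and in NKO_IL4 1 was (1.9%). The protease Ctsl was higher in NKO_Veh (3842 and 4008 CPM against 1924 and 1671 CPM, 1.13) and in NKO_KLA (1.32).

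The genes whose pattern was most like that of H2-Ab1 over the 22 groups were Tmem176a (Pearson r 0.94), Mir5107 (0.93), Tmem176b (0.92), Ppp6c (0.92) and Ptbp3 (0.92), among 10834 genes outside the members. Within the members, r with H2-Ab1 was 0.96 for Cd74, 0.92 for H2-Aa, 0.91 for H2-Eb1, 0.73 for H2-DMb1, 0.55 for Ciita and 0.54 for H2-DMa. For Ciita the nearest genes were Rfx5 (0.89), Wrn (0.89), Cyld (0.89), Dnaaf3 (0.88) and Klf8 (0.87), and the nearest members H2-DMa (0.76) and H2-DMb1 (0.71). Cd74, H2-Aa and H2-Eb1 were therefore nearer to H2-Ab1 than to Ciita (r with Ciita 0.63, 0.45 and 0.37). H2-DMa was nearer to Ciita, and H2-DMb1 was almost as near to Ciita (0.71) as to H2-Ab1 (0.73). Other pairs of members were not compared. These values describe group means of log2(CPM + 1) centred within each table, and the points share libraries, depth and the large KLA contrast.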

How the data were processed

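Poly-A enriched RNA of BMDMs was sequenced, and the authors aligned the reads to mm10 with STAR and counted them in exons with HOMER, keeping the most abundant transcript per gene. The deposited values are whole-number read counts, not normalized, in 4 tables with the 44 libraries in columns. Tool versions of those steps are not given in the sources used here, and the tables still list 1346 genes shorter than 250 bases. The members and gene lists were chosen with earlier results of these data known.

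Each table was fitted separately with edgeR 4.0.16 in R 4.3.3 (TMM factors, filterByExpr, robust quasi-likelihood F-test, 2-sided, all groups of the table in 1 fit), testing 13407, 12196, 12205 and 12332 genes in the NCoR, RGFP966, Pgc1b and TBK1i tables. Adjusted p-values are Benjamini-Hochberg values over all genes tested, and a call required FDR < 0.05 and FC > 1.5 in either direction. The SE is that implied by the F statistic. Intervals and floors cover counting error only. Differences between responses are interaction terms. All members are described, pathway and marker lists are given as counts, sums or examples (a further gene of the list upstream of Ciita is not reported here), and the genes most like H2-Ab1 and Ciita are the 5 with the highest correlation of group means. The scripts were tested on simulated data. Alternatives were DESeq2 1.42.0 and its size factors, no filter, no fold threshold, only the compared groups, a replicate block, each library left out, and library totals, which were added after seeing the data. Replicates of every group differed by more than counting noise (chi-square per degree of freedom at least 1.55). Promoter windows came from RefSeq (GRCm38.p6), and 5 of the 8 members, H2-Aa, H2-Eb1, H2-DMa, H2-DMb1 and H2-DMb2, matched an entry.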

Additional observations from a re-analysis of the deposited data

Results flagged for a closer look

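Differences between groups in the response to the same treatment are given as log2 values with edgeR's adjusted p below 0.05 and a fold above 1.5. For the KLA response, NKO minus WT was -2.39 for H2-Aa, -1.80 for H2-Ab1, -1.80 for Cd74, -1.61 for H2-Eb1 and -1.28 for H2-DMb1, in 1 direction for all 5. For the RANKL response, NKO minus WT was 1.49 for H2-Aa, 1.42 for H2-Eb1, 1.30 for H2-Ab1, 1.21 for Cd74, 1.09 for Ciita and 1.03 for H2-DMa, opposite in sign to the KLA difference for the 4 genes named under both. For the PolyIC response it was 0.74 for Ciita and 0.61 for H2-Eb1, both lost without WT_Veh replicate 2. For the KLA response with Cre minus without Cre in Pgc1b flox/flox cells it was 1.38 for Ciita, against -1.41 for H2-Ab1, -0.66 for H2-DMa, -0.65 for H2-Aa, -0.65 for H2-DMb1 and -0.61 for Cd74. The PolyIC, RANKL and KLA differences of the NCoR table share the vehicle libraries of both genotypes. Between genotypes under RANKL itself only H2-Aa was called. The RANKL and KLA libraries carry stamps unlike those vehicle libraries.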

How the results depend on the processing

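Of 139 member fold changes per setting, 109 kept both direction and call under library totals, 124 of 128 with only the compared groups, 134 with DESeq2, 135 with its size factors, 137 with no filter, and 139 with the replicate block. Library totals left 1 call for WT_PolyIC, 0 for NKO_PolyIC, 2 for NKO_IL4, 4 for Pgc1b_flox_KLA, 2 for the difference with Cre and 2 for DMSO_KLA, and changed the sign of 12 fold changes: for KLA in the RGFP966 table H2-Aa (-0.48), H2-Eb1 (-0.28), H2-DMa (-0.65) and Cd74 (-0.03), for Pgc1b_flox_KLA H2-DMa (-0.11), for DMSO_KLA H2-DMa (-0.20) and Ciita (-0.36), for WT_PolyIC H2-Aa (-0.17) and H2-Eb1 (-0.32), for WT_KLA H2-DMb2 (-0.58), for WT_RANKL H2-Aa (0.07) and for WT_IFNb H2-DMb1 (-0.05). DESeq2 and its size factors turned H2-Ab1 for RGFP966_KLA to -0.04. Without the fold threshold there was 1 call for WT_IFNb, 5 for WT_IL4, 3 for NKO_RANKL, 2 for NKO_PolyIC, 3 for NKO_IFNb, 3 for NKO_IL4, 6 for RGFP966_KLA and 6 for Pgc1b_flox_Cre_KLA. DESeq2 and its size factors each gave 2 for NKO_PolyIC and 1 for the PolyIC difference, DESeq2 gave 1 for RGFP966_KLA, and only the compared groups gave 1 for the PolyIC difference. For the IL4 difference, no filter and the replicate block gave 1 each, and no other call count passed 1.5 times under the replicate block. Replicate numbers pair nothing in the labels, and same-numbered libraries correlated from -0.0596 to 0.0591. Leaving out 1 library gave 0 to 2 calls for WT_IFNb, 3 to 6 for NKO_Veh, 1 to 2 for NKO_RANKL, 0 to 2 for NKO_PolyIC, 0 for NKO_IL4, 0 to 4, 0 to 3 and 0 to 3 for the PolyIC, IFNb and IL4 differences, 1 to 2 for RGFP966_KLA and 3 to 6 for the difference with Cre. Fold changes whose sign depended on 1 library were uncalled and ran, for H2-DMb2, from -0.57 to 1.51 (WT_KLA), -1.72 to 0.36 (WT_PolyIC), -1.32 to 0.76 (WT_IFNb), -1.42 to 0.66 (NKO_Veh) and -0.18 to 0.95 (NKO_IFNb). For WT_RANKL they ran from -0.28 to 0.30 (H2-Aa), -0.12 to 0.32 (H2-Ab1) and -0.39 to 0.21 (Cd74). For Cd74 they ran from -0.46 to 0.14 (WT_IFNb) and -0.04 to 0.56 (WT_IL4), and for H2-DMb1 from -0.03 to 0.15 (WT_IFNb), -0.01 to 0.51 (WT_IL4) and -0.45 to 0.07 (NKO_IL4). The others were Ciita in NKO_RANKL (-0.16 to 0.31) and with KLA in the RGFP966 table (-0.21 to 0.02), H2-Aa in NKO_IL4 (-0.17 to 0), H2-DMa with KLA in the RGFP966 table (-0.03 to 0.27) and in Pgc1b_flox_Cre_Veh (-0.14 to 0.03), and H2-Ab1 in RGFP966_KLA (-0.06 to 0.11). The higher ends of the call counts for IFNb and the 3 ligand differences came without WT_Veh replicate 1. The cause of these changes was not tested. In H2-DMb2, with 13 counts or fewer, depth limits any statement.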
